A study of Mus musculus with 20 samples.

Results

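Broad unmethylated valleys were defined as runs of 4 or more consecutive 1000 bp windows on the autosomes, each with a mean methylation under 10% in the 5 wild-type (WT) mice of 10 months. The rule found 2699 windows in 542 valleys, which is 0.121% of the 2224981 autosomal windows measured at that age. A further 81 windows in 14 runs at the Hoxa, Hoxb, Hoxc and Hoxd clusters were left out. The rule used only the 10-month WT values, so these values, and any comparison that contains those mice, are given below as a description with no test.

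The libraries were enzymatic methyl-seq (EM-seq) of DNA from brain microglia, the resident macrophages of the brain, isolated from 1 mouse brain per library. All mice were males of the B6D2F1/J strain, and the groups were 6 hemizygous mThy1-α-synuclein (Tg) and 4 WT mice of 7 months, and 5 Tg and 5 WT mice of 10 months. In Tg mice the mouse Thy1 promoter, which is active mainly in neurons, drives human wild-type α-synuclein, and WT mice were littermates without the transgene. GEO's labels name IBA1 and the study's methods name CD11b as the antigen of the magnetic selection, and both antigens also occur on other macrophages.

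DNA methylation in mammals is placed on the cytosine of CpG dinucleotides, and most CpGs of an adult cell carry it. CpG islands, the CpG-dense stretches found at many gene starts, usually escape it over a short distance. In a subset of loci the unmethylated stretch runs for many kilobases, and such valleys or canyons are known mainly from genes of developmental transcription factors, which in differentiated cells are often held silent by Polycomb proteins rather than by DNA methylation.

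Of the 7-month libraries, those labelled Tg replicate 6 and WT replicate 2 went against their labels. Of the 746 windows (0.0327% of 2280867) that passed limma, a linear model test over all windows, between genotypes at 10 months (adjusted p under 0.01 and 25 points of methylation), 669 were also measured at 7 months. Over these, a scale was set from 0% for the 10-month WT mean to 100% for the 10-month Tg mean. The other 5 Tg libraries lay between 83.7 and 89.7% and the other 3 WT libraries between 11.1 and 35.8%. Tg replicate 6 lay at 20.2% and WT replicate 2 at 91.5%. Results at 7 months are given as labelled. The values without both libraries are added for the mean over valleys, some means over other sets of windows, the limma counts and the valley classes. They are also added for a named valley or window where they change whether the genotypes overlap. The cell type was checked at the start windows of marker genes: the start windows of 20 microglia markers had a median methylation of 12.4% in 10-month WT mice, and 19 of the 20 lay under 50%, with Aif1 at 86.2% as the exception. The start windows of 8 lymphocyte markers had a median of 76.5%, those of 7 oligodendrocyte markers 78.3% and those of 11 border macrophage and blood myeloid markers 67.7%. The start windows of 8 astrocyte markers had a median of 27.4%, with 3 under 10%. Those of 8 endothelial markers had a median of 32.8%, with 2 under 10%. Neuronal marker starts were low, with a median of 4.3%, so a low start window did not by itself mark the cell type.

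The sequences just before 6 starts inside valleys and 2 microglia gene starts outside them show how such starts differ in CpG content. Each is the 250 bases upstream of a RefSeq start in build GRCm38.p6, none of them within an annotated exon, written 5′ to 3′ with every CpG in capitals. Nkx2-1, Pax2 and Pou3f3 are developmental factors from some of the longest valleys, Runx1 is a blood and myeloid lineage factor, Jun is an immediate early gene and Tnrc18 lies in a long valley of very low methylation. P2ry13 and Trem2, a purinergic receptor and a lipid receptor of microglia, are the contrast.
Nkx2-1 (chr12:56536909-56537158, minus strand): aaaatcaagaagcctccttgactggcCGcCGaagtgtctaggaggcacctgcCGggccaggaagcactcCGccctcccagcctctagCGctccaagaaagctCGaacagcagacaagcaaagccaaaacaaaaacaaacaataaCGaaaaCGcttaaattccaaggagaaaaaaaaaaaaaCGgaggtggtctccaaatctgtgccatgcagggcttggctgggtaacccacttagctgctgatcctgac
Pax2 (chr19:44755502-44755751, plus strand): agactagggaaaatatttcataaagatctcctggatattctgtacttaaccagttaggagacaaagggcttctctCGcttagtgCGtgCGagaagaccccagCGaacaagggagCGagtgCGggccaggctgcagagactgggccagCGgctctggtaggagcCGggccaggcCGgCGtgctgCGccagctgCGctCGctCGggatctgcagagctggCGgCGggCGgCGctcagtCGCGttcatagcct
Pou3f3 (chr1:42695518-42695767, plus strand): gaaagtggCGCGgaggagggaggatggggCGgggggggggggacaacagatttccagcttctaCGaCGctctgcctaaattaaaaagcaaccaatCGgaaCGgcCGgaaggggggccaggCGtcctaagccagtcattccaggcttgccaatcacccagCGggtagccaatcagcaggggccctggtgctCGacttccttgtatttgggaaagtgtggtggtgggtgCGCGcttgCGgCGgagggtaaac
Runx1 (chr16:92697330-92697579, minus strand): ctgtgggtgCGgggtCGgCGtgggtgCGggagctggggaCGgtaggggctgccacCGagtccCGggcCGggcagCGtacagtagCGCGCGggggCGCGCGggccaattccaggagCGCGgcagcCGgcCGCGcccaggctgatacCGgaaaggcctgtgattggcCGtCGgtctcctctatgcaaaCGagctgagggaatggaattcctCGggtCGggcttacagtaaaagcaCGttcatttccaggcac
Jun (chr4:95052223-95052472, minus strand): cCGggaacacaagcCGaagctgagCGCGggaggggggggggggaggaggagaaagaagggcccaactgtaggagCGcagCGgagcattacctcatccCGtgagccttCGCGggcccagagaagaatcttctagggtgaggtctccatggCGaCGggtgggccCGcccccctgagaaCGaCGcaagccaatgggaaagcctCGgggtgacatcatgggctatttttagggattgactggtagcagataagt
Tnrc18 (chr5:142817663-142817912, minus strand): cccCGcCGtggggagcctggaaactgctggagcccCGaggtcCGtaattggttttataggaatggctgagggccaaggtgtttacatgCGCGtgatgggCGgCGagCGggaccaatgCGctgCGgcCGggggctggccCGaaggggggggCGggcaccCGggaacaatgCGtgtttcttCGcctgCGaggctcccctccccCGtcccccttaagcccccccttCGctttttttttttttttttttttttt
P2ry13 (chr3:59210883-59211132, minus strand): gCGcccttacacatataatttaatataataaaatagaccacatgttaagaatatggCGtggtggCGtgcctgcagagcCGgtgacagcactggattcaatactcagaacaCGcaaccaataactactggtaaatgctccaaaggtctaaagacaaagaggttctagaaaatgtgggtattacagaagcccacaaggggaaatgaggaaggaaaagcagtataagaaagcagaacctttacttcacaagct
Trem2 (chr17:48346151-48346400, plus strand): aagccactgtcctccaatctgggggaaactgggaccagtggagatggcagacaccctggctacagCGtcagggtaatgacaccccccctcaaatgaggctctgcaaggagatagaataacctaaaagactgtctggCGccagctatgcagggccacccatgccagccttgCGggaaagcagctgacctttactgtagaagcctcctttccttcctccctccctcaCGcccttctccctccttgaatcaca

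The 250 bases held 9 CpGs before Nkx2-1, 20 before Pax2, 15 before Pou3f3, 27 before Runx1, 15 before Jun and 20 before Tnrc18. Those of P2ry13 and Trem2 held 5 and 4. The Runx1 count was matched or exceeded in 8.4% of the 25748 autosomal RefSeq promoters of that table, and the Nkx2-1 count in 41.4%. CpG content was also compared at the first listed promoter of each gene, which need not be the start that lies in the valley. It did not separate genes of valleys from those of short unmethylated stretches. The median was 17 CpGs for 358 genes with a start in a valley. It was also 17 for 8640 genes with a start in a run of 1 to 3 low windows. For 6275 genes with a start in neither it was 3. The 1000 bp window that holds the Runx1 start was at 0.6% ± 0.8 in Tg and 0.1% ± 0.1 in WT mice of 7 months (SD, n = 6 and 4). The window of the P2ry13 start was at 7.5% ± 3.4 and 12.0% ± 5.6, and that of the Trem2 start at 11% ± 6.1 and 10.5% ± 5.0.

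Most valleys were short: 311 held 4 windows, 111 held 5, 72 held 6 or 7 and 48 held 8 or more. A valley window held a median of 44 reference CpGs (quartiles 28 and 66), against 46 in windows of the 16924 shorter low runs and 7 in all autosomal windows. Inner windows of valleys held a median of 49 CpGs and the first and last windows 37. Among autosomal windows with 80 or more CpGs, 96.6% were under 10% but 9.09% were in a valley, so most very CpG-dense windows were unmethylated without lying in a valley.

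Gene starts were the common feature of valleys that the rule did not use. In GENCODE vM21, 458 of 542 valleys (84.5%) held the start of a protein-coding gene, 27 held the start of another kind of gene only, 35 overlapped a gene without holding a start, and 22 lay outside any gene. Of 20090 protein-coding genes, 488 (2.4%) had a start in a valley, 54.9% had one in a run of 1 to 3 low windows and 42.7% in neither.

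Developmental transcription factors were 20.3% of the 488 genes with a start in a valley. Of 233 listed and measured factors, 99 (42.5%) had a start in a valley, against 2.4% of all protein-coding genes. By family the share was 57.7% for the DLX and other homeobox genes, 55.6% for GATA and ZIC zinc fingers, 53.3% for sine oculis, IRX and MEIS homeobox genes, 14 of 28 for paired box and paired-like genes, 48.4% for NK genes, 45.5% for POU, 41.7% for both LIM homeobox and forkhead genes, 33.3% for SOX, 30.8% for T-box and 18.9% for bHLH genes. Of 74 morphogens and ligands of the WNT, BMP and TGF-beta, FGF, Hedgehog and Notch families, 12 (16.2%) had a start in a valley, among them Wnt11, Wnt1, Bmp4, Fgf9 and Ihh. The lists were not tested against each other.

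**Figure D1:**
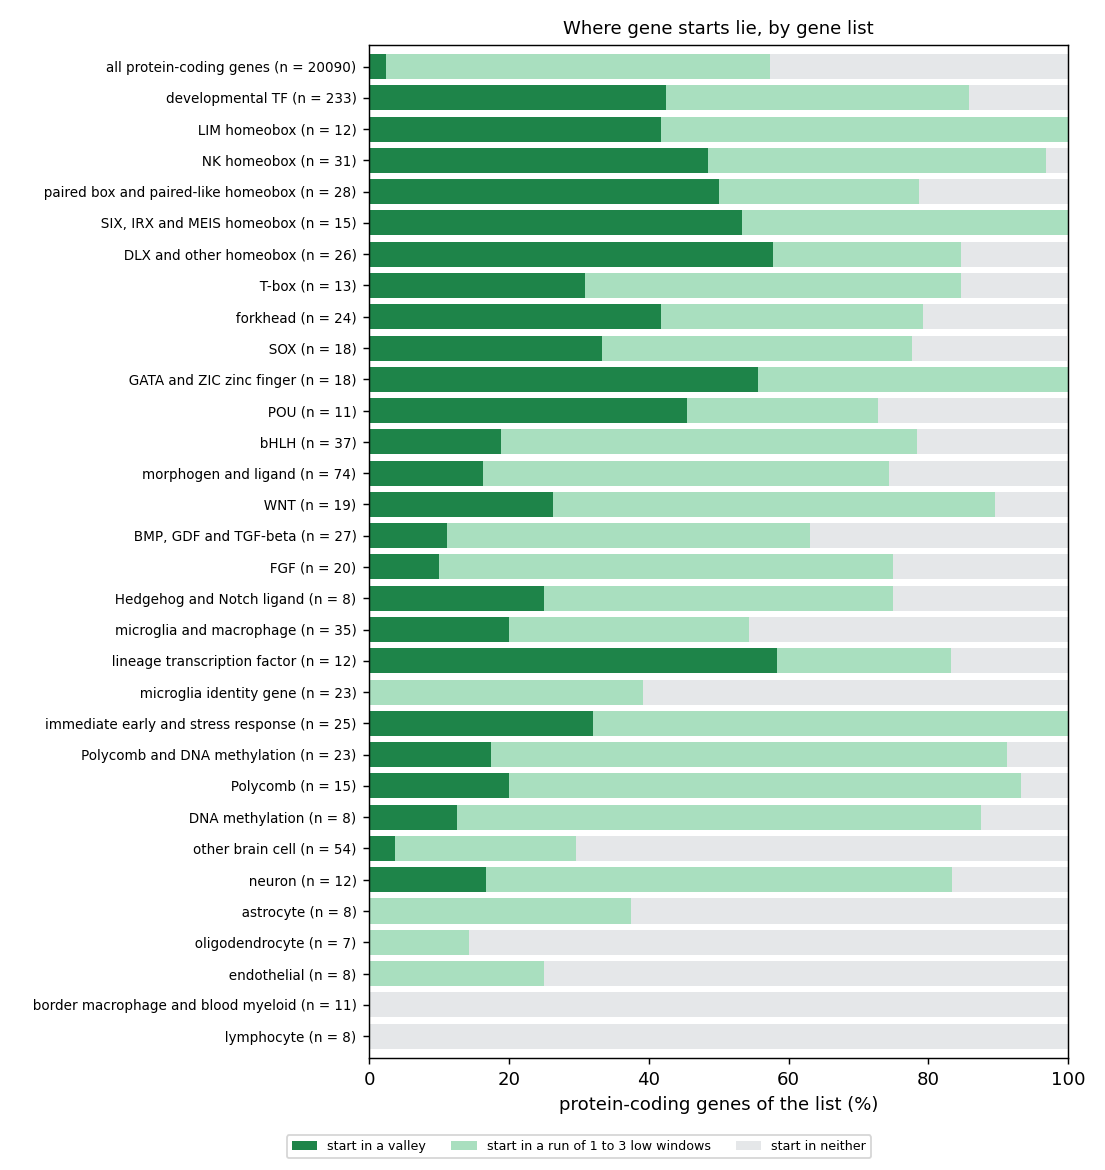
Share of the measured genes of each list (x axis, %) with a start in a valley, in a run of 1 to 3 low windows, or in neither, by gene list and by family within a list (n, genes measured). Developmental transcription factors reached 42.5% in valleys, lineage transcription factors of microglia and macrophages 58.3%, and microglia identity genes 0%, where all protein-coding genes had 2.4%.

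Of all 542 valleys 103 (19%) held such a start, and the share was higher among longer valleys up to a point: 32.5% of the 231 valleys of 5 or more windows, 44.2% of the 120 of 6 or more, 56.2% of the 48 of 8 or more and 55.6% of the 18 of 10 or more. The longest, 15 windows at chr4:139819001-139834000, lay over Pax7, a paired box factor of muscle stem cells and the dorsal neural tube. Uncx, a homeobox factor of somites, followed with 13 windows (chr5:139540001-139553000) and Foxb1, a forkhead factor of the diencephalon, with 12 (chr9:69758001-69770000). Nkx2-1, which specifies ventral forebrain, lung and thyroid, and Fezf1, a forebrain zinc finger, each had 11. Of the 12 valleys of 10 windows, the 6 of lowest level in 10-month WT mice were those of Ebf3, Skor1, Osr2, Tfap2d, Dmrta2 and Foxf2. Fezf1, Ebf3, Skor1, Tfap2d and Dmrta2 were not on the list although all encode transcriptional regulators, so the counted share is a low one.

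The valley over Pax7 had methylation levels (mean of its windows in a mouse) of 3.32% at the lowest, 4.64% at the median and 5.77% at the highest of the 6 Tg mice of 7 months. The 4 WT mice of that age had 4.89, 4.59, 6.64 and 5.10%. At 10 months the Tg mice had 5.63, 4.29, 4.43, 4.43 and 5.37% and the WT mice 5.16, 5.16, 5.65, 6.22 and 5.21%. The genotypes overlapped at both ages. Over the 18 valleys of 10 or more windows, group means ran from 4.15% (Ebf3, Tg at 7 months) to 7.13% (Fezf1, Tg at 10 months), and SDs between mice from 0.18 to 1.2 points.

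Some valleys took in a whole gene. Of 488 genes with a start in a valley, 45 (9.2%) lay wholly inside it, against 95 of 11024 genes (0.9%) with a start in a shorter run. Among developmental transcription factors the count was 22 of 99 (22.2%) in valleys and 3.0% in shorter runs, although the genes had similar median lengths of 6.5 and 5.9 kb. Valleys are longer than the shorter runs by the rule, so this comparison is given with no test.

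Valleys also came in groups. Within 10 kb of another valley lay 80 of 542 (14.8%), as 42 neighbouring pairs. The windows between the members of a pair had a median methylation of 15.95% in 7-month WT mice, and 37 of the 42 gaps lay under 25%. Pax6, the master factor of the eye, had 3 valleys along it with gaps of 9.4 and 9.8% in those mice, and Six3, Barhl2, Pou4f1 and Pax9 each had a pair. The 2 valleys at Tfap2a were separated by windows of 56.9%.

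Beyond the edge, methylation climbed within a few kilobases. In 7-month WT mice the outermost window inside a valley had a mean of 4.51% ± 0.25 (SD, n = 4) and the next one inward 2.66% ± 0.16. The first window outside had 37.5% ± 0.35, the next 53.7% ± 0.32, and the window centred 9.5 kb outside 68.9% ± 0.30, where windows over the whole genome averaged between 75.3 and 77.7% in the 20 mice.

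**Figure D2:**
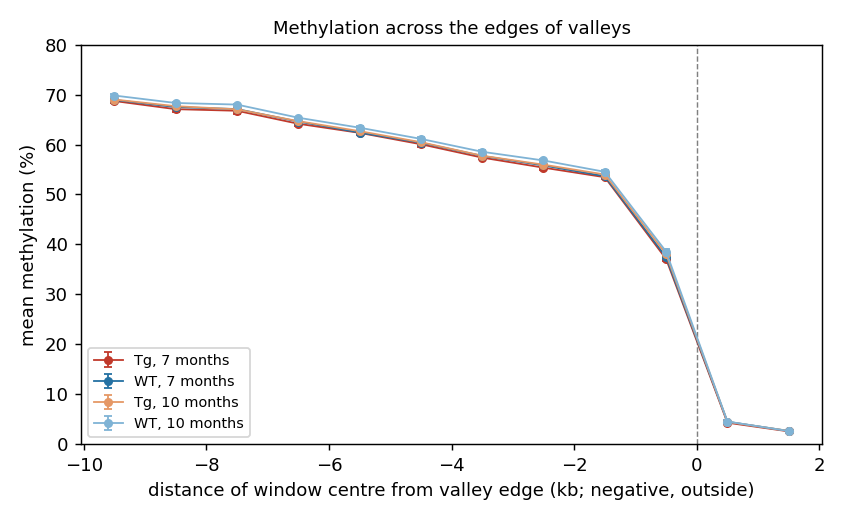
Mean methylation (y axis, %) of windows by the distance of their centre from the valley edge (x axis, kb, negative outside), for the 4 groups, with bars for the SD over mice. All 4 lines fell from 68.7 to 69.8% at 9.5 kb outside to under 5% inside, and they lay within 2 points of each other at every distance.

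The methylation of the valleys was low in both genotypes and at both ages. The mean over all valley windows of a mouse was 3.30% at the lowest, 3.46% at the median and 3.68% at the highest of the 6 Tg mice of 7 months. The 4 WT mice of 7 months had 3.62, 3.40, 3.81 and 3.68%, the 5 Tg mice of 10 months 3.53, 3.5, 3.81, 3.70 and 3.59%, and the 5 WT mice of 10 months 3.59, 3.43, 3.67, 3.96 and 3.56%. As means these were 3.48% ± 0.13, 3.63% ± 0.17, 3.63% ± 0.13 and 3.64% ± 0.20 (SD over mice). The groups overlapped. Without Tg replicate 6 and WT replicate 2, the 7-month means were 3.43% ± 0.08 and 3.70% ± 0.10, and the 5 Tg mice (3.30 to 3.52%) lay below the 3 WT mice (3.62 to 3.81%). In windows of the shorter low runs the order was then the opposite. There the same Tg mice had 4.249 to 4.671% and the same WT mice 3.944 to 4.195%. Neither separation was tested. The mitochondrial genome, which carries little or no CpG methylation and gives the level that unconverted cytosines leave, was at 0.21 to 0.56% in the 20 mice.

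**Figure D3:**
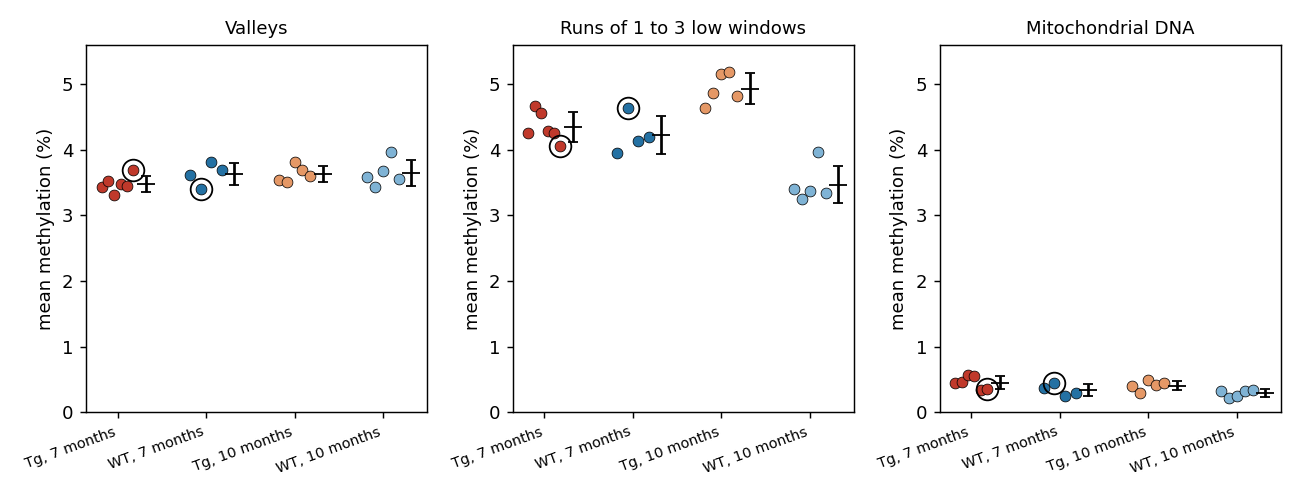
Mean methylation per mouse (y axis, %) of valley windows, of windows in runs of 1 to 3 low windows, and of the mitochondrial genome, by group, with the mean and SD over mice beside the points. Rings mark Tg replicate 6 and WT replicate 2 of 7 months, and valley means lay between 3.30 and 3.96% in all 20 mice.

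Valley windows kept their low values in mice that had no part in the rule. Under 10% lay 98.0% of 2696 measured valley windows in Tg mice of 7 months, 97.3% in WT mice of 7 months and 97.1% of 2699 in Tg mice of 10 months, and the highest group means were 16.7, 17.4 and 21.1%. For windows of the shorter runs, chosen by the same cut, the 10-month WT mean was 3.47%. The means of the other groups were 4.23% (WT, 7 months), 4.35% (Tg, 7 months) and 4.93% (Tg, 10 months). The valley means of those groups were 3.63, 3.48 and 3.63%. Both sets were chosen on the 10-month WT values, which are low by that choice. Fewer than 5 reference CpGs were held by 7.96% of the short-run windows and 0.67% of the valley windows. The part of the choice and of CpG number in the higher short-run means was not tested. When the same rule was applied to the other groups, it gave 3131 windows in Tg and 2963 in WT mice of 7 months and 2929 in Tg mice of 10 months. These sets held 93.8, 92.3 and 92.1% of the valley windows, and the valley windows were 80.9, 84.1 and 84.9% of them.

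Near the cut the values were close together. Just inside lay windows at the ends of the Flrt2 valley (9.992% in 10-month WT mice), the Helt valley (9.991%) and a valley over Tbx5 (9.964%), and just outside lay windows next to valleys over Sox1ot (10.02%), Nkx3-2 (10.021%) and Pou4f1 (10.051%). In Tg mice of 10 months the first 3 were at 11.8, 9.05 and 10.7% and the other 3 at 8.09, 11.4 and 8.20%.

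The level of valleys differed between classes set by the genes that start in them, and these classes also differed in length and CpG density. In WT mice of 7 months, the median level was 4.38% over 102 valleys with a developmental transcription factor and 2.06% over 8 valleys with an immediate early gene. In Tg mice of that age the values were 4.40 and 1.69%. Without Tg replicate 6 and WT replicate 2 they were 4.39 and 2.01% in WT and 4.33 and 1.77% in Tg mice. The developmental valleys had the higher median in 20 of 20 mice, against the immediate early valleys and also against valleys with only unlisted coding genes. Each class holds the same valleys in every mouse, and the 5 WT mice of 10 months chose the members. The mice are therefore not independent evidence on the classes, and the count is a description with no test. Sall1 is on 2 lists and was left out of this comparison. The median level was 2.83% over valleys of 4 windows and 4.82% over those of 8 or more in Tg mice of 7 months, so the classes were also compared at like length. Among valleys of 4 windows, the 28 developmental ones had a median of 3.91% and the 283 others 2.73% in Tg mice of 7 months, and 3.62 and 2.95% in WT mice of that age. Among the 48 valleys of 8 or more windows the medians were 4.75 and 4.83% in Tg and 5.24 and 4.79% in WT mice, so the order differed between the genotypes. Without Tg replicate 6 and WT replicate 2 the medians were 3.78 and 2.65% in Tg and 3.6 and 3.1% in WT mice for valleys of 4 windows, and 4.87 and 4.87% in Tg and 5.26 and 4.85% in WT mice for those of 8 or more. These differences at like length were not tested. The 84 valleys with no coding start had medians of 5.18% in WT and 4.94% in Tg mice of 7 months, above the developmental valleys. The median number of CpGs per kb was 34.6 in that class and 48.6 in developmental valleys. It was 53.3 in valleys with only unlisted coding genes and 59.6 in immediate early valleys. The part of CpG density in the levels was not tested.

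**Figure D4:**
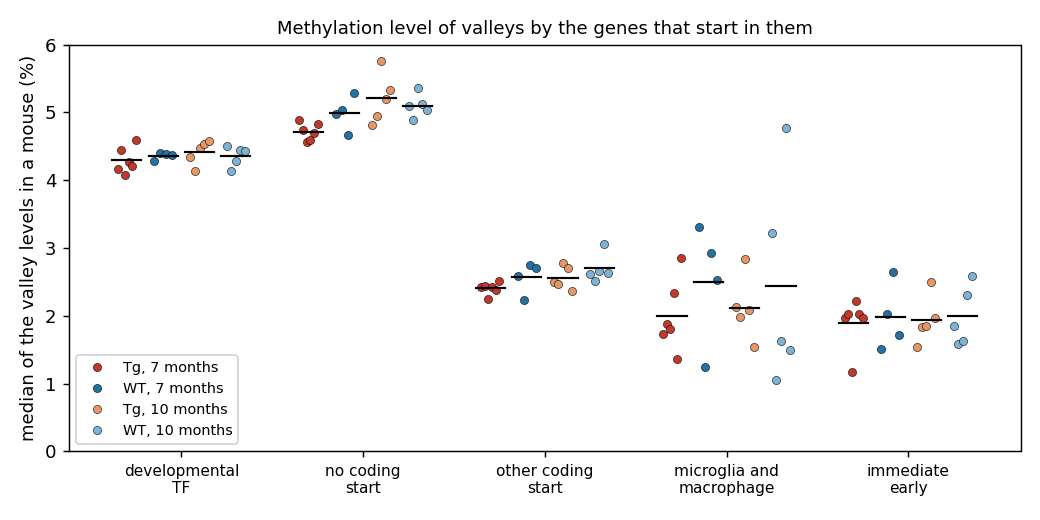
Median level of the valleys of a class in each mouse (y axis, %), by class (x axis) and group (colour), with black bars for group means. Developmental valleys and valleys with no coding start lay above 4% in every mouse, while valleys with immediate early genes lay under 3%.

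Of the 48 valleys of 8 or more windows, that of Tnrc18 had the lowest mean in each of the 4 groups. The 8 windows of Tnrc18 (chr5:142815001-142823000), which encodes a trinucleotide repeat protein, had a level of 0.27% at the lowest, 0.44% at the median and 0.70% at the highest of the Tg mice of 7 months. The WT mice of 7 months had 0.33, 0.17, 0.22 and 0.31%. These values overlap the range of the mitochondrial genome. At 10 months the Tg mice had 0.41, 0.52, 0.31, 0.68 and 0.80%. The WT mice of that age had 0.56, 0.78, 1.27, 0.39 and 1.11%, of which 3 lay above that range. The 8-window valleys of Bahcc1, Irf2bp2, Zfp36l2 and of Bcl11a, a factor of lymphoid and neuronal development, had group means between 1.33 and 2.22%.

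Immediate early genes, which cells transcribe within minutes of a stimulus, had 8 of 25 starts in valleys: Jun, Junb and Fosl2 of the AP-1 family, the zinc fingers Egr2, Egr3, Klf4 and Klf6, and Ier2. Their levels were low, from 0.81% ± 0.15 for Fosl2 to 3.71% for Ier2 as means of Tg mice of 7 months. Jun had levels of 1.68, 0.92, 4.22 and 1.80% in the 4 WT mice of 7 months, and 0.36, 1.78 and 2.16% as the lowest, median and highest of the 6 Tg mice, so the groups overlapped.

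Genes of Polycomb and DNA methylation proteins contributed 4 of 23. Jarid2, a subunit of Polycomb repressive complex 2, had a valley at 0.37% ± 0.34 in Tg and 0.45% ± 0.26 in WT mice of 7 months. Cbx8, a chromobox subunit of complex 1, was the nearest coding gene to the longest valley without a gene. Tet2, which oxidises 5-methylcytosine, was at 1.91% ± 0.88 and 2.28% ± 1.27. Of 12 neuronal markers, Gad1 and Gad2, the enzymes of GABA synthesis, had a valley, while none of the astrocyte, oligodendrocyte, endothelial, border macrophage and blood myeloid or lymphocyte markers did.

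Of 12 lineage factors, 7 (58.3%) had a start in a valley, among them Sall1, which maintains microglia identity, the macrophage factors Maf and Irf5, the blood lineage factor Runx1, and Mef2a and Mef2c. Of 23 measured identity genes such as P2ry12, Trem2 and C1qa, 0 did, where the share of all protein-coding genes was 2.4%, so a list of this size could hold none at that share. The Mef2a valley includes a window with 1 reference CpG and the Mef2c valley windows of 4, 7 and 9, so their means rest on few cytosines there.

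The Runx1 valley (chr16:92694001-92699000) had levels of 3.34, 2.25, 8.94 and 6.65% in the 4 WT mice of 7 months. In the 6 Tg mice of that age the lowest, median and highest were 0.90, 3.06 and 4.85%. The groups overlapped: WT replicates 1 and 2 lay within the Tg range and the other two WT mice above it. The spread was at the outer end of the valley: its first window was at 3.4% ± 1.8 in Tg and 12.0% ± 10.0 in WT mice (unadjusted p = 0.0186, adjusted p = 0.936, limma over all windows), while the window of the start was at 0.6 and 0.1%. Without Tg replicate 6 and WT replicate 2 the first window was at 3.3% ± 1.9 and 15% ± 9.8 with no overlap (adjusted p = 0.488, limma), while the levels of the whole valley still overlapped. Mef2c had levels of 5.08, 2.94, 9.0 and 5.11% in WT and 1.53, 3.12 and 4.16% as lowest, median and highest in Tg mice of 7 months. Its only WT value within the Tg range was that of WT replicate 2, and without both libraries the WT mice (5.08 to 9.0%) lay above the Tg mice (1.53 to 4.16%). Of 29 valleys compared in this way (those of lineage factors, immediate early genes, the longest and those of very low level), it was the only one without overlap then, and as labelled the genotypes overlapped in all 29. Without both libraries the genotypes did not overlap in 5.05% of all single windows and 4.45% of valley windows. Those are shares of single windows, and no share over all valleys without both libraries is given here. The count of 1 in 29 valleys is therefore not read as setting Mef2c apart. At 10 months the WT levels of the Mef2c valley were 3.73, 3.67, 4.08, 10.9 and 1.58%, with replicate 4 far above the others. Maf lay between 0.33 and 2.31% in all 20 mice.

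The mean over the 7 lineage factor valleys was 3.11, 1.44, 4.49 and 3.28% in the WT mice of 7 months, and 1.72, 2.16 and 2.88% as lowest, median and highest in the Tg mice. Without the 2 libraries that went against their labels, the WT values lay from 3.11 to 4.49% and the Tg values from 1.72 to 2.39%. This separation in a chosen list of valleys was not tested. At 10 months Tg mice had 2.03 to 2.91% and WT mice 1.60 to 5.21%, so the groups overlapped. The start windows of the 20 microglia markers moved with this in part. Their mean was 19.7, 12.9, 26.1 and 18.9% in the WT mice of 7 months. In the Tg mice of that age it lay between 13.3 and 18.7%, with Tg replicate 6 the highest. Without those 2 libraries the WT mice had 18.9 to 26.1% and the Tg mice 13.3 to 17.7%, also with no overlap. The separation was thus not particular to the lineage factor valleys. At 10 months WT replicate 4 was the highest mouse for both measures, with 5.21% and 24.0%. WT replicate 2 of that age had the lowest lineage mean, 1.60%, but a marker mean of 18.9%, within the WT range of 16.3 to 24.0%. The start windows of 11 border macrophage and blood myeloid markers averaged 57.5 to 61.2% in Tg and 55.9 to 63.3% in WT mice of 7 months, and those of 12 neuronal markers 10.9 to 14.2% and 11.5 to 15.2%. In both of these sets the genotypes also overlapped without those 2 libraries. At 10 months the former averaged 54.6 to 63.7% in Tg and 62.4 to 67.0% in WT mice, with WT replicate 4 the highest. The neuronal ones then averaged 9.3 to 12.8% in Tg and 11.9 to 15.3% in WT mice, with WT replicate 5 the highest. The part of the cell makeup of the libraries in these values was not tested.

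**Figure D5:**
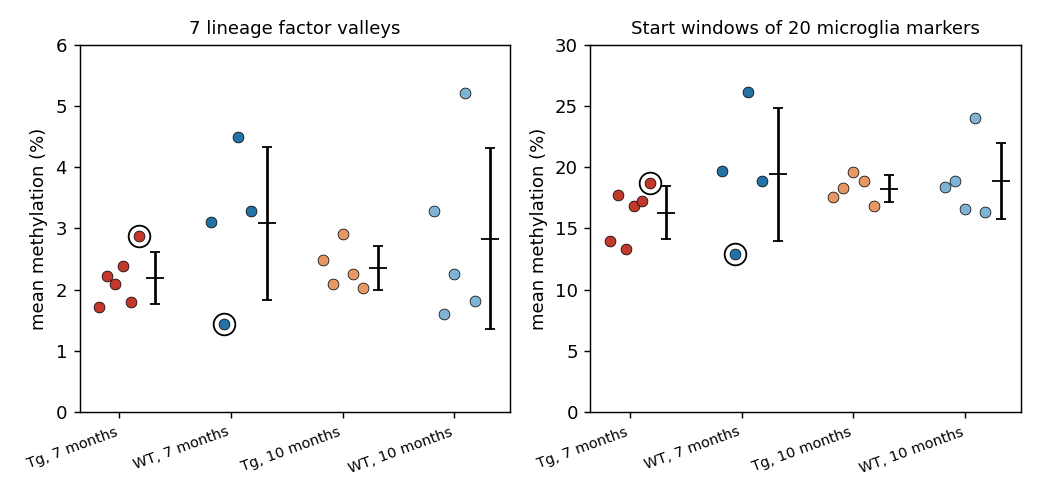
Mean methylation per mouse (y axes, %) of the 7 valleys at lineage transcription factors and of the start windows of 20 microglia markers, by group, with the mean and SD beside the points and rings as in the plot of valley means. In both panels the highest mice were WT replicate 3 of 7 months and WT replicate 4 of 10 months.

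The genotype comparison at 7 months asked whether α-synuclein overexpression went with a change in valley methylation, in mice the rule did not use. With limma over all 2260746 windows, 0 of 2696 valley windows passed at an adjusted p under 0.01 and 25 points, and 0 at an adjusted p under 0.05, where the shares of all windows were 0% and 8.85e-05%. A window chosen for a level under 10% could pass the first rule only by a rise, and the largest difference of a valley window was 9.49 points, so the 0 under that rule carries little information. The smallest adjusted p of a valley window was 0.936. At an unadjusted p under 0.05 there were 95 valley windows (3.52%), against 5.28% of all windows. Groups did not overlap in 28 valley windows (1.04%), against 1.05% of all windows. Of the 2696 differences, 1298 had the higher mean in Tg mice and 1398 in WT mice. Over all windows these counts were 1044428 and 1215872. The median absolute difference was 0.47 points, 99.3% of windows differed by 5 points or less, and the 95% interval of a difference reached a median of 1.57 points to either side.

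Without Tg replicate 6 and WT replicate 2, 0 of 2696 valley windows passed either rule. Of all windows 331 (0.0146%) passed the first and 1025 (0.0453%) the second. At such small shares a set of 2696 windows could hold none, and the first rule again needed a rise of 25 points. The 0 therefore does not set valleys apart from other windows. The smallest adjusted p of a valley window was then 0.104, and 136 (5.04%) had an unadjusted p under 0.05, against 6.65% of all windows. Groups did not overlap in 120 valley windows (4.45%), against 5.05% of all windows, and WT mice were higher in 80 of them, where 2.92% of all windows were higher in WT mice without overlap.

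Among the 5 valley windows with the largest differences at 7 months were windows in the valleys of Pde3b, Runx1, Chd3 and Nuak1, with an adjusted p of 0.936 each. In Chd3, a chromatin remodeller, the WT mean of 9.0% ± 12.4 came from WT replicate 2 at 27.4%, with the others at 2.8, 1.2 and 4.4%. The Pde3b window held 5 reference CpGs and ranged from 2.6 to 33.1% among the WT mice. Nuak1, a stress kinase, was at 6.6% ± 2.9 in Tg and 13.2% ± 5.5 in WT mice. Without Tg replicate 6 and WT replicate 2 the WT mice lay above the Tg mice in the windows of Pde3b (16.7 to 33.1% against 0.8 to 11.9%) and Nuak1 (11.5 to 20.7% against 2.2 to 9.2%), with adjusted p-values of 0.602 and 0.627 (limma). The Chd3 means were then 2.4% ± 2.2 in Tg and 2.8% ± 1.6 in WT mice.

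Age was compared within Tg mice, where each age had been processed on its own, so that age and processing cannot be told apart. With limma over 2214076 windows measured at both ages, 0 of 2696 valley windows passed at an adjusted p under 0.01 and 25 points and 0 at an adjusted p under 0.05, where 0.000271% and 0.000723% of all windows did. The smallest adjusted p was 0.777, and 104 valley windows (3.86%) had an unadjusted p under 0.05, against 5.52% of all windows. The ages did not overlap in 13 valley windows (0.482%), against 0.558% of all windows. The higher mean was at 10 months in 1485 valley windows and at 7 months in 1211, with a median difference of 0.08 points. Over all windows these counts were 1204468 and 1009259, with a median difference of 0.302 points. The excess at 10 months was thus not particular to valleys. The 95% interval of a difference reached a median of 1.55 points to either side. These values include Tg replicate 6 of 7 months. Without it, limma again passed 0 valley windows by either rule, and the smallest adjusted p was 0.723. An unadjusted p under 0.05 was then found in 117 valley windows, and in 128736 of all 2214076 windows. The higher mean was at 10 months in 1516 valley windows and at 7 months in 1180.

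The largest age difference was in a valley with no gene at chr5:41753001-41757000, in its first window, which held 10.8% ± 4.0 in Tg mice of 7 months and 21.1% ± 9.5 in those of 10 months (adjusted p = 0.902). The 10-month Tg values were 22.9, 31.8, 23.2, 5.6 and 21.9% and the 7-month ones 8.0% at the lowest, 9.05% at the median and 18.7% at the highest, so the ages overlapped through Tg replicate 4 of 10 months. Next in size were windows of Ptch1, the Hedgehog receptor, of Usp7, a deubiquitinase, and of Gli1, a Hedgehog effector. Their differences were 10.2 to 3.0%, 4.9 to 11.5% and 13.1 to 6.6% from 7 to 10 months, with adjusted p-values of 0.923, 0.893 and 0.917. A window of a valley over the noncoding gene 9030622O22Rik went from 6.5% ± 2.5 to 12.8% ± 4.5 with an adjusted p of 0.865. The windows of 9030622O22Rik, Ptch1 and the gene-free valley held only 6, 8 and 10 reference CpGs. Those of Usp7 and Gli1 held 46 and 32.

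At 10 months the WT mice chose the members, so the genotype values are descriptive. The genotypes did not overlap in 20 of 2699 valley windows (0.741%), where 1.71% of all windows did not. The largest differences were 21.1% against 7.9% in the same gene-free valley on chromosome 5, 11.3 points in Fezf1, 16.6% against 9.0% in Zfp462 and 15.1% against 8.5% in Kansl1l, with Tg mice higher, and 3.7% against 9.7% in the valley of Clic1 and Msh5, with WT mice higher. In the gene-free window the 10-month WT mice had 7.4, 8.6, 8.1, 9.2 and 6.1%, below 4 of the 5 Tg mice. In Fezf1 the Tg mice had 22.5, 4.6, 17.9, 31.4 and 13.3% and the WT mice 5.3, 10.0, 8.7, 8.0 and 1.4%. The genotypes overlapped in both windows, which held 10 and 4 reference CpGs, so their values rest on few cytosines.

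Of the 22 valleys without any gene, the 5 longest are given with their nearest protein-coding gene. The longest, 8 windows at chr11:119051001-119059000 with 350 CpGs, was at 5.0% ± 0.5 in Tg and 5.1% ± 1.2 in WT mice of 7 months and lay 10032 bp from Cbx8. The 6-window valley at chr9:99868001-99874000 lay 106 bp from Sox14, a SOX factor of neuronal development, and that at chr4:44711001-44717000 lay 514 bp from Pax5, the B cell factor. The latter was at 6.5% ± 0.3 in Tg and 5.4% ± 0.1 in WT mice of 7 months, and as labelled the Tg mice (6.22 to 6.85%) lay above the WT mice (5.37 to 5.57%). The genotypes did not overlap at that age in 5 of the 542 valleys (0.923%), with Tg mice higher in 3. Of all single windows 1.05% did not overlap, a share near that of the valleys, although a valley mean takes in 4 or more windows. At 10 months they overlapped in the valley near Pax5, at 4.75 to 8.69% in Tg and 5.03 to 6.86% in WT mice. A 6-window valley at chr5:119795001-119801000 lay 31668 bp from Tbx5, a factor of heart and forelimb, with 125 CpGs and the highest levels of the 5, at 8.0% ± 0.7 and 8.1% ± 0.9. The fifth, 5 windows at chr13:94869001-94874000, lay 1602 bp from Otp, a hypothalamic homeobox factor, and was at 4.9% ± 0.4 and 5.2% ± 0.7.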

How the data were processed

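Per the labels, reads were trimmed with Trim Galore 0.6.7, aligned to mm10 with Bismark 0.23.1 and Bowtie2 2.2.5, and summarised with methylKit 1.22.0. The deposited values are the methylated fraction of each 1000 bp window for each mouse, computed by the authors separately at 7 and 10 months, and were multiplied by 100 here. They carry no read counts, so depth per window is unknown and no counting interval is given. Window tests used limma 3.58.1 in R 4.3.3 on log2((percent + 1)/(101 - percent)), with Benjamini-Hochberg adjustment over all windows and the authors' limits of 25 points and 0.01, and were tested on simulated data. With 10 points added to 200 valley windows among 2260746 simulated windows of the 7-month genotype comparison, 134 of the 200 passed at an adjusted p under 0.05, and so did 25 unchanged windows. For age in Tg mice (2214076 windows) these were 127 of 200 and 11. The same simulations also lowered other windows by a larger amount, which loosens the adjusted cut. They raised all libraries of 1 group alike, although 2 libraries of 7 months went against their labels. These shares can therefore overstate what the fits would find in the data. Intervals of a difference used a pooled SD. Gene starts came from basic protein-coding transcripts of GENCODE vM21, marker starts from the principal transcript, CpGs from GRCm38.p6. Named valleys were the 12 longest, genes of the lists, the lineage factors in valleys, the windows of largest difference, those nearest the cut and the 5 longest without a gene. The long valleys of very low level (Tnrc18, Bcl11a, Irf2bp2, Bahcc1, Zfp36l2) and the gaps between valleys were picked after their values were seen. Some results that these rules select are not reported here. Members and lists were chosen with earlier results of these data known. The named valleys, windows, classes and means of other window sets without both 7-month libraries were added after seeing the data. Alternatives were other cuts, run lengths, weightings, transforms and left-out mice.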

Additional observations from a re-analysis of the deposited data

Results flagged for a closer look

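In 176 groups of 4 to 6 mice (the valley mean, the named valleys and windows and the lineage factor mean), a mouse far from the others of its group was found in 11. Chance flags about 1 in 20 of groups that are independent and not picked by their values. Some of these windows were picked for the size of their difference, and some groups share windows, so that rate is only a rough guide. Among lineage factors, WT replicate 4 of 10 months stood apart in the Mef2c valley (10.85%, next 4.08%) and Tg replicate 6 of 7 months in the Irf5 valley (4.48%, next 2.43%). Among long developmental valleys the distant mice were Tg replicate 3 of 7 months in Fezf1 (4.90%, next 5.88%), WT replicate 2 of 10 months in Osr2 (4.46%, next 4.81%) and Tg replicate 1 of 10 months in Dmrta2 (4.52%, next 5.32%). Others were Tg replicate 3 of 10 months in Fosl2 (1.3%), Tg replicate 2 of 7 months in Ier2 (5.30%), and in Irf2bp2 both Tg replicate 3 (3.01%) and WT replicate 3 (2.34%) of 7 months. In single windows they were WT replicate 2 of 7 months in Chd3 (27.4%, next 4.4%) and Tg replicate 1 of 7 months in the gene-free valley on chromosome 5 (18.7%).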

How the results depend on the processing

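The number of valley windows followed the rule: 933 under 5%, 4451 under 15%, 5810 with runs of 3 or more windows and 1455 with 5 or more, against 2699. Leaving out each 10-month WT mouse gave 2644 to 2844. Weighting windows by CpGs gave 2.59, 2.64, 2.69 and 2.70% for Tg and WT at 7 months and Tg and WT at 10 months. Leaving out the first and last window of each run gave 2.91, 3.03, 3.05 and 3.04%, the median over windows 2.74, 2.82, 2.84 and 2.94%, and counting each valley once 3.34, 3.49, 3.48 and 3.51%. Without single mice the group means were 3.43 to 3.51%, 3.57 to 3.70%, 3.58 to 3.66% and 3.56 to 3.70%. The count of valley windows passing limma was 0 in all 19 alternative fits of each comparison, with smallest adjusted p-values from 0.104 to 0.988 (genotype, 7 months) and 0.486 to 0.962 (age, Tg). The replicate numbers did not pair mice (correlations of same-numbered mice from -0.057 to 0.043), and a replicate block also gave 0 calls. Read depth was unknown, so its effect on single windows was not tested.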
